A study of Homo sapiens with 6 samples.

Results

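The feedback inhibitors of the ERK pathway examined here are 10 genes whose products restrain growth factor signalling: the dual-specificity phosphatases DUSP1, DUSP4, DUSP5 and DUSP6, the Sprouty proteins SPRY1, SPRY2 and SPRY4, the Sprouty-related proteins SPRED1 and SPRED2, and PHLDA1. They were chosen by name, and all 10 were matched by gene ID among the 60675 genes of the count table. RNA-seq was made from MRC-5, a widely used normal diploid fibroblast line that was derived from fetal lung and stops dividing after a limited number of doublings. The quiescent group comprised 3 libraries from cells at population doubling 32 that had been held at contact inhibition for 9 days. The young group comprised 3 libraries from control cells of the same line and population doubling, which the labels describe as reanalysed libraries of an earlier series. Library set and growth state therefore coincide and cannot be told apart. Whether libraries of a group came from separate cultures is not stated in the labels, and p-values therefore reflect the spread among these libraries alone, which may be technical.

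In the ERK pathway, growth factor receptors activate RAS, which activates RAF kinases. RAF then phosphorylates MEK, and MEK phosphorylates ERK. Active ERK enters the nucleus and induces early response genes, and several of the genes it induces encode inhibitors that act back on the cascade. Dual-specificity phosphatases remove the activating phosphates from MAP kinases, whereas Sprouty and SPRED proteins act upstream at the level of receptors, RAS and RAF. In fibroblasts, ERK activity is associated with entry into the cell cycle.

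Library totals ranged from 18661639 to 22546237 counts in quiescent cells and from 26860981 to 29433764 in young cells. Levels are given as CPM, counts relative to a common library total, after scaling by TMM factors, and 15568 genes were abundant enough to be tested. The proliferation antigen MKI67 had 6.15, 5.87 and 5.14 CPM in quiescent libraries, against 61.0, 66.8 and 50.3 CPM in young libraries. All 10 fibroblast markers were measured, with a summed level of 14639 to 15005 CPM in quiescent and 25141 to 25749 CPM in young libraries. Markers of lung fibroblasts summed to 413 to 414 CPM in quiescent and 314 to 329 CPM in young libraries. The sum of the general list was lower in quiescent cells and that of the lung list was higher, and single markers varied. COL1A1 had 3880 CPM in quiescent and 8780 CPM in young cells. S100A4 had 3.51 CPM in quiescent and 52.0 CPM in young cells. In the test named below, 7 general markers were lower in quiescent cells, LUM and PDGFRB were higher and 1 was not called. Of the lung markers, FOXF1 was lower and 3 were higher. TBX4, among these 3, had 3.01 CPM in quiescent and 1.49 CPM in young cells. Of the other cell types, CDH5 and PECAM1 of endothelium, CD3E and PTPRC of leukocytes, and CDH1 and SFTPC of epithelium were at or near 0. The 7 epithelial markers summed to 15.7 to 16.3 CPM in quiescent and 31.2 to 33.0 CPM in young libraries, of which KRT8 held 13.9 CPM in quiescent and 17.8 CPM in young cells and KRT19 held 1.04 CPM in quiescent and 12.3 CPM in young cells, and KRT5 had no read. The 6 endothelial markers summed to 94.7 to 96.9 CPM in quiescent and 75.8 to 86.6 CPM in young libraries, of which TEK held 89.1 CPM in quiescent and 78.7 CPM in young cells. KDR had 3.10 CPM in quiescent and 0.394 CPM in young cells, and VWF had 3.27 CPM in quiescent and 0.803 CPM in young cells. The 6 leukocyte markers summed to 2.52 to 3.43 CPM in quiescent and 1.06 to 1.52 CPM in young libraries. Of this sum CD14 held 2.58 CPM in quiescent and 1.03 CPM in young cells. These lists stayed far below the fibroblast markers in all 6 libraries. The 6 smooth muscle and pericyte markers summed to 197 to 204 CPM in quiescent and 618 to 646 CPM in young libraries. MYH11 was near 0 in both groups. CSPG4 held 81.6 CPM in quiescent and 272 CPM in young cells, and MCAM held 76.1 and 266 CPM in the same order. CNN1 held 31.7 CPM in quiescent and 80.7 CPM in young cells. In the test named below, 4 of the 5 tested markers were lower in quiescent cells and 1 was not called. The part that these marker differences have in the results below was not tested. As the RNA is from bulk cultures, fewer cells of a type and less RNA per cell cannot be told apart.

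The feedback inhibitors did not move as a group. Among the 10 genes, 2 rose in quiescent cells (SPRY1 and DUSP4), 5 fell (DUSP1, DUSP5, SPRY2, SPRY4 and PHLDA1) and 3 were not called (DUSP6, SPRED1 and SPRED2) at an adjusted p under 0.05 in edgeR's quasi-likelihood test with Benjamini-Hochberg adjustment over all 15568 genes. The background was high: 71.1% of all tested genes were called, 34.8% as higher and 36.3% as lower in quiescent cells. The count of 7 called among 10 is therefore near the share among all genes. The median log2 fold change (quiescent over young) was -0.086 for the 10 genes and 0.00 for all tested genes, and with library size alone as the scaling 0.093 for the 10 genes and 0.18 for all. Changes of at least 2-fold were seen for SPRY1 upward and for DUSP1, DUSP5 and SPRY2 downward, while 8.98% of all tested genes rose and 8.33% fell by that much. For 8 of the 10 genes the 3 quiescent values lay wholly above or below the 3 young ones, which held for 73.5% of all tested genes. Every adjusted p below is from the same edgeR test unless another is named.

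**Figure D1:**
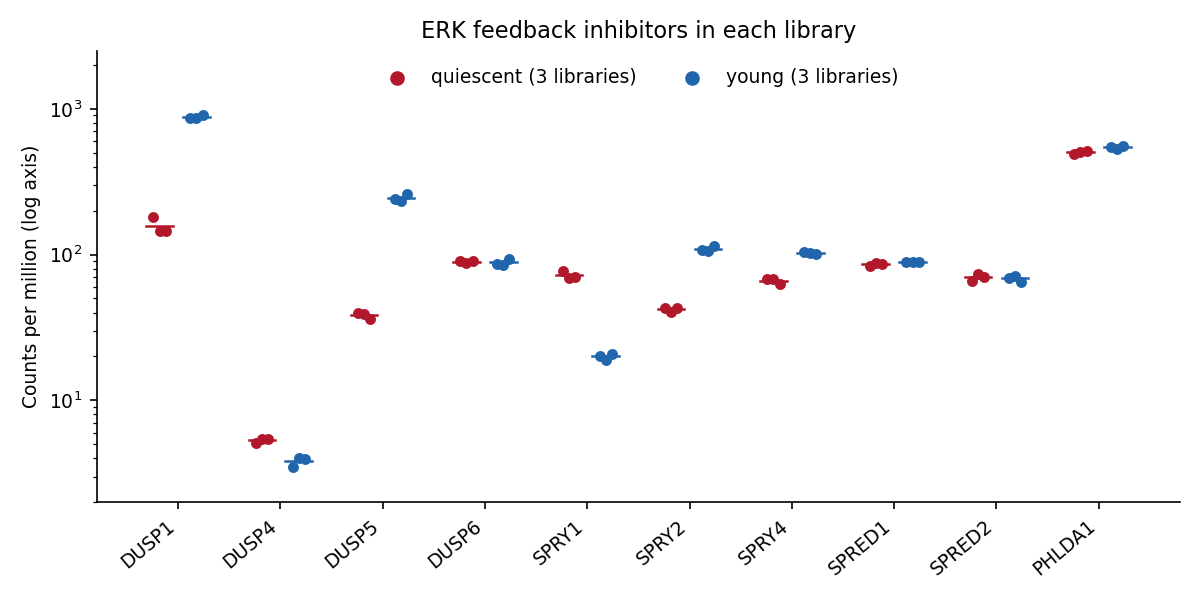
CPM of the 10 feedback inhibitors in each of the 3 quiescent and 3 young libraries, on a log axis, with a line at the mean of each group. DUSP1 and DUSP5 lie several-fold lower in quiescent libraries, SPRY1 lies several-fold higher, and the values of DUSP6 and SPRED2 overlap between the groups.

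DUSP1 and DUSP5, which encode inducible nuclear phosphatases, had the largest falls. DUSP1, whose product acts on p38 and JNK as well as ERK, had 180.5, 144.8 and 145.4 CPM in quiescent libraries, against 864, 860 and 902 CPM in young libraries. The young libraries were all far above the quiescent ones, and quiescent replicate 1 stood above the other two quiescent libraries. DUSP1 fell 5.58-fold in quiescent cells, with a log2 fold change of -2.48 ± 0.09 (SE), a 95% interval of -2.68 to -2.28 and an adjusted p of 4.08e-08. DUSP5, whose product is selective for ERK and holds it in the nucleus, had 39.7, 38.9 and 36.2 CPM in quiescent libraries, against 239, 234 and 259 CPM in young libraries. The groups were far apart and each was tight. The fall was 6.37-fold (log2 fold change -2.67 ± 0.05, adjusted p 2.02e-24), the largest among the 10 genes.

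Quiescent replicate 1 was the highest of its group for DUSP1 and for both early response genes set beside it. The spread of DUSP1 within the quiescent group was 13.1% of its mean, whereas the median over the 7506 tested genes with a mean of at least 20 CPM was 2.75%. EGR1, an early response transcription factor that ERK induces, had 448, 339 and 344 CPM in quiescent libraries, against 1249, 1215 and 1221 CPM in young libraries. FOS, another early response gene, had 481, 357 and 357 CPM in quiescent libraries and 758, 746 and 792 CPM in young libraries. For all 3 genes the same quiescent library was the highest of its group and still lay below every young library. With each library left out in turn, the log2 fold change of DUSP1 stayed between -2.59 and -2.42.

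DUSP4 and DUSP6 did not share these falls. DUSP4, a nuclear phosphatase for ERK and JNK, was the least abundant of the 10 genes, with 106, 129 and 108 reads in quiescent libraries and 89, 108 and 110 reads in young libraries. As CPM these were 5.14, 5.41 and 5.44 in quiescent libraries, against 3.50, 3.99 and 3.95 in young libraries, so that the groups did not overlap although the raw read counts did. DUSP4 rose with a log2 fold change of 0.48 ± 0.12 (95% interval 0.24 to 0.72, adjusted p 8.20e-04). At this depth the exact Poisson 95% interval of a single library was wide, 4.20 to 6.21 CPM in quiescent replicate 1 and 3.28 to 4.82 CPM in young library 1.1, and such intervals cover counting error only. DUSP6, the cytoplasmic phosphatase selective for ERK, had 90.7, 87.9 and 89.8 CPM in quiescent libraries and 86.7, 84.5 and 93.8 CPM in young libraries. The ranges overlapped fully, and the log2 fold change was 0.02 ± 0.04 with a 95% interval of -0.07 to 0.11 (adjusted p 0.733). An antisense gene on the opposite strand, AC024909.2, shares 1875 bases, or 40.5%, of the DUSP6 exon model, and the library kit does not mark the strand, so reads from that stretch cannot be assigned to either gene. AC024909.2 itself had 57, 76 and 63 reads in quiescent libraries and 25, 30 and 17 reads in young libraries.

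The Sprouty genes went opposite ways. Their products block the coupling of receptors to RAS and RAF. SPRY1 had 76.5, 69.0 and 70.4 CPM in quiescent libraries, against 20.3, 19.0 and 20.7 CPM in young libraries. Every quiescent library was more than 3-fold above every young library. SPRY1 rose 3.60-fold (log2 fold change 1.85 ± 0.05, adjusted p 2.17e-20), the largest rise among the 10 genes. SPRY2 had 43.0, 40.3 and 43.0 CPM in quiescent libraries, against 107.6, 106.5 and 115.1 CPM in young libraries. SPRY2 fell 2.61-fold (log2 fold change -1.38 ± 0.05, adjusted p 4.05e-19), with no overlap of the groups. SPRY4 had 67.8, 67.9 and 63.2 CPM in quiescent libraries, against 104.2, 102.4 and 101.4 CPM in young libraries. It fell by a smaller 1.55-fold (log2 fold change -0.63 ± 0.04, adjusted p 1.04e-12).

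Neither SPRED gene, whose products bring the RAS inhibitor neurofibromin to the membrane, passed the test. SPRED1 had 83.1, 87.8 and 86.2 CPM in quiescent libraries and 89.6, 89.3 and 88.7 CPM in young libraries. The young values all lay above the quiescent ones by a narrow margin, and the log2 fold change of -0.06 ± 0.04 (95% interval -0.14 to 0.03, adjusted p 0.215) did not pass the threshold. SPRED2 had 66.1, 73.7 and 70.3 CPM in quiescent libraries and 69.3, 71.5 and 64.8 CPM in young libraries, with overlapping ranges. Its log2 fold change was 0.03 ± 0.05, with a 95% interval of -0.07 to 0.13 (adjusted p 0.557).

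PHLDA1, a pleckstrin homology-like protein that dampens receptor signalling, had 493, 505 and 510 CPM in quiescent libraries, against 547, 532 and 553 CPM in young libraries. It was lower in all 3 quiescent libraries, and the fall was small (log2 fold change -0.11 ± 0.04, adjusted p 0.00932). The calls of PHLDA1, DUSP6, SPRED1 and SPRED2 depended on how libraries were scaled. With library size alone in place of TMM, the median log2 fold change of all genes moved to 0.18, and 48.6% of them were called higher and 25.0% lower. DUSP6, SPRED1 and SPRED2 were then called higher at 0.20, 0.12 and 0.21, which made 5 of the 10 genes higher and 4 lower, and PHLDA1 had 0.064 and was not called (adjusted p 0.128). The values of DUSP6, SPRED1 and SPRED2 are near that shifted median, and the value of PHLDA1 lies below it. DUSP1, DUSP4, DUSP5, SPRY1, SPRY2 and SPRY4 kept their direction and call under all 16 alternatives tried.

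**Figure D2:**
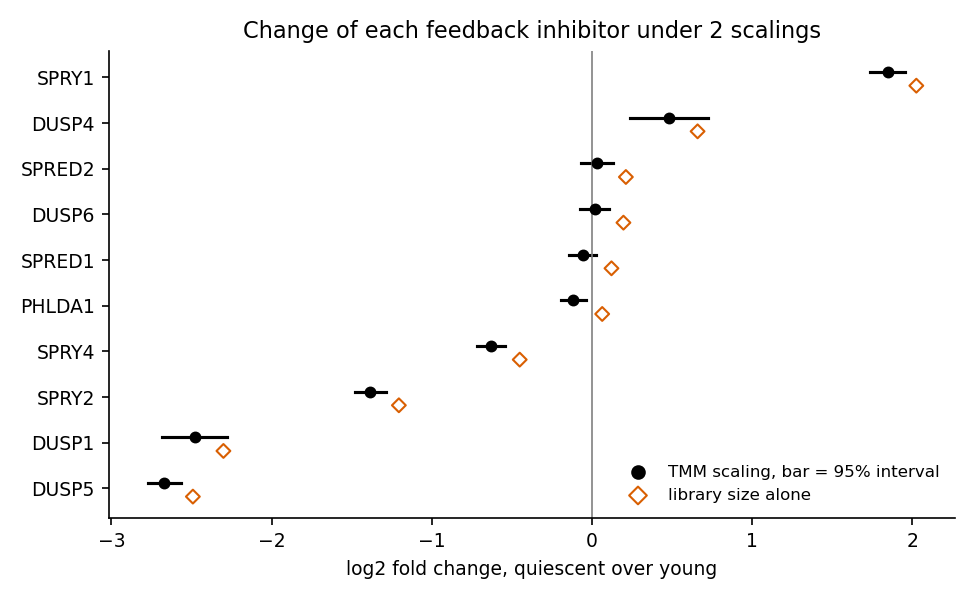
Log2 fold change, quiescent over young, of the 10 feedback inhibitors, as filled points with 95% intervals under TMM scaling and as open diamonds under library size alone. DUSP5 at -2.67 and SPRY1 at 1.85 mark the extremes, and the intervals of DUSP6, SPRED1 and SPRED2 include 0; every diamond lies to the right of its point.

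Levels of different genes were set side by side as CPM per kilobase of exon, using GENCODE 29 exon lengths. In quiescent cells DUSP1 led with 77.7 ± 10.1 CPM per kilobase (SD, n = 3), followed by PHLDA1 with 62.3 ± 1.09. DUSP6 with 19.3 ± 0.312 and SPRY1 with 18.2 ± 1.01 came next and overlapped each other. DUSP5 with 14.6 ± 0.697, SPRY2 with 13.9 ± 0.510 and SPRED2 with 13.6 ± 0.738 formed a further overlapping group. SPRED1 had 10.4 ± 0.286, SPRY4 had 10.1 ± 0.407 and overlapped SPRED1, and DUSP4 came last with 0.734 ± 0.0233 CPM per kilobase. In young cells DUSP1 led with 434 ± 11.5 CPM per kilobase (SD, n = 3), ahead of DUSP5 with 93.3 ± 5.08 and PHLDA1 with 67.4 ± 1.31. SPRY2 with 36.1 ± 1.54, DUSP6 with 19.1 ± 1.04, SPRY4 with 15.6 ± 0.217 and SPRED2 with 13.3 ± 0.661 came next. SPRED1 had 10.8 ± 0.0520, SPRY1 had 5.05 ± 0.226 and DUSP4 had 0.526 ± 0.0374 CPM per kilobase, and no neighbours in the young order overlapped. SPRY1 thus ranked 4 of 10 in quiescent cells and 9 of 10 in young cells, and DUSP5 ranked 5 in quiescent cells and 2 in young cells. The deposited RPKM imply a SPRY4 length of 5930 bases in place of 6565; with it SPRY4 reached 11.2 ± 0.451 CPM per kilobase in quiescent cells (SD, n = 3), above SPRED1 without overlap, and kept its place in young cells.

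The summed level of the 4 phosphatases was 112 ± 10.8 CPM per kilobase in quiescent cells and 546 ± 17.6 CPM per kilobase in young cells (SD, n = 3 each). DUSP1 made up most of the sum in both groups. Its share was 69.0 ± 2.26% in quiescent cells and 79.4 ± 0.454% in young cells. DUSP6, whose own level did not pass the test, held 17.3 ± 1.39% of the phosphatase sum in quiescent cells and 3.49 ± 0.0786% in young cells. The Sprouty sum differed far less, with 42.1 ± 1.47 CPM per kilobase in quiescent cells and 56.8 ± 1.59 in young cells. Its composition differed strongly: SPRY1 held 43.1 ± 0.887% in quiescent cells and 8.88 ± 0.215% in young cells, while SPRY2 held 32.3% to 34.1% in quiescent libraries and 62.8% to 64.7% in young libraries. SPRED1 and SPRED2 together had 24.0 ± 1.02 CPM per kilobase in quiescent and 24.1 ± 0.703 in young cells. No test was applied to these sums.

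**Figure D3:**
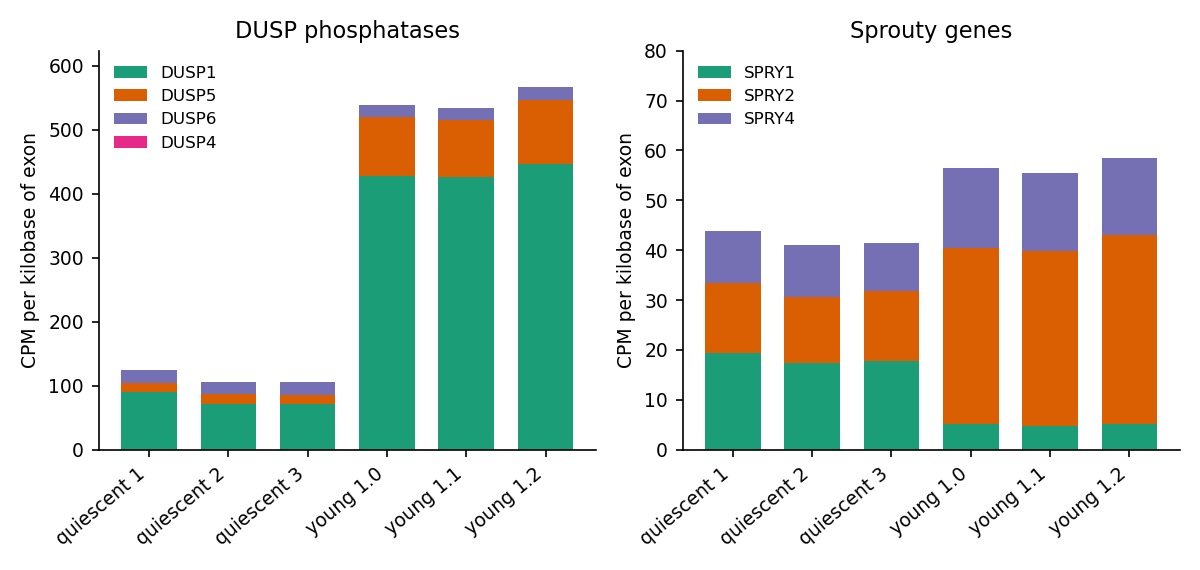
Stacked CPM per kilobase of exon of the 4 phosphatases (left) and the 3 Sprouty genes (right) in each of the 3 quiescent and 3 young libraries, with a separate axis for each panel. The phosphatase sum averages 112 in quiescent and 546 in young cells, and SPRY1 takes 43.1% of the Sprouty sum in quiescent cells against 8.88% in young cells.

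Ratios of 2 genes within a library do not depend on scaling between libraries. SPRY1 had 1.78, 1.71 and 1.64 reads for each SPRY2 read in quiescent libraries, against 0.188, 0.178 and 0.180 in young libraries. SPRY1 thus had more reads than SPRY2 in each quiescent library and fewer in each young library, a 9.38-fold shift of the ratio (difference in log2 ratio 3.23). The ratio of SPRY4 to SPRY2 was 1.58, 1.68 and 1.47 in quiescent libraries, against 0.969, 0.961 and 0.881 in young libraries. DUSP5 had 0.438, 0.443 and 0.404 reads per DUSP6 read in quiescent libraries, against 2.76, 2.77 and 2.76 in young libraries, so the order of these 2 phosphatases by reads was also opposite in the 2 groups. DUSP1 had 1.99, 1.65 and 1.62 reads per DUSP6 read in quiescent libraries and 9.97, 10.2 and 9.62 in young libraries. DUSP1 outnumbered DUSP6 in all 6 libraries. The ratio of DUSP4 to DUSP6 was 0.0566, 0.0615 and 0.0606 in quiescent libraries, against 0.0404, 0.0472 and 0.0421 in young libraries. SPRED1 to SPRED2 was the only overlapping ratio of the 6, with 1.26, 1.19 and 1.23 in quiescent libraries and 1.29, 1.25 and 1.37 in young libraries. In the exact two-sided permutation test over the 6 libraries, the 5 ratios without overlap each had p = 0.1, the smallest that 3 against 3 allows, and 0.12 after adjustment over the 6 ratios, while SPRED1 to SPRED2 had p = 0.2. This test therefore cannot pass 0.05 with 3 libraries a group.

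**Figure D4:**
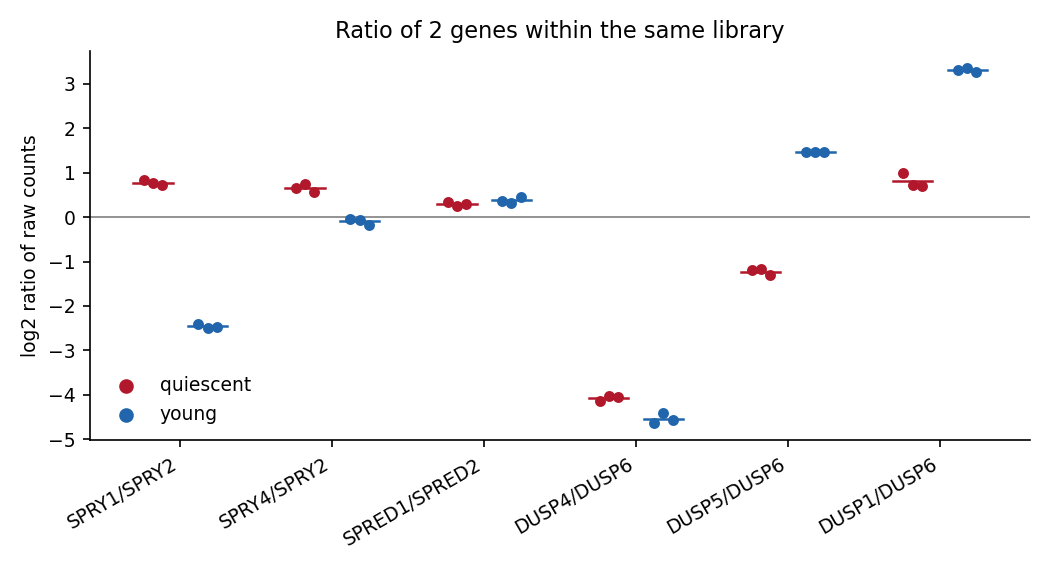
Log2 ratio of reads for 6 pairs of feedback inhibitors, each point a library, quiescent left of young. The SPRY1 to SPRY2 ratio is above 0 in the 3 quiescent libraries and below 0 in the 3 young ones, and the SPRED1 to SPRED2 ratio overlaps between groups.

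Promoter sequence is shown for DUSP1, SPRY2 and SPRY1, which are the genes with called changes of at least 2-fold apart from DUSP5, for which no window was used here. RefSeq promoter windows (GRCh38.p14, 250 bases before to 50 after an annotated start) existed in the table used here for 8 of the 10 genes, in 12 windows. SPRY1 had 2 windows and SPRY2 had 3, and the first listed of each is printed. The whole printed SPRY2 window, with the 50 bases after its start, lies outside the gene span given below. Which start is used in these cells was not tested. The 200 bases upstream of a start are printed 5′ to 3′ on the gene's strand, for DUSP1 at chr5:172771196-172771395 (minus strand), for SPRY1 at chr4:123396595-123396794 (plus strand) and for SPRY2 at chr13:80341127-80341326 (minus strand). Capitals mark a cyclic AMP response element, TGACGTCA, and a TATA motif, TATAAA.
DUSP1: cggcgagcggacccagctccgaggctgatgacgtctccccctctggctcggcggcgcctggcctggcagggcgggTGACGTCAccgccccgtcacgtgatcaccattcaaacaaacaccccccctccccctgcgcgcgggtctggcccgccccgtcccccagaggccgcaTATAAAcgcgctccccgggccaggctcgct
SPRY1: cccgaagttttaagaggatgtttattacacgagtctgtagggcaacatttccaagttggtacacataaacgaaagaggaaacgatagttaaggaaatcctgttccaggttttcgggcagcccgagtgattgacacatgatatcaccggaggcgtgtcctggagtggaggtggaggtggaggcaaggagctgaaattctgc
SPRY2: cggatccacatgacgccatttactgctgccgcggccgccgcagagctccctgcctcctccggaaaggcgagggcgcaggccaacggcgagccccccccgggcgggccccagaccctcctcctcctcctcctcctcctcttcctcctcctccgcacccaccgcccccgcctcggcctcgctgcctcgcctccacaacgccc
The DUSP1 window held TGACGTCA with its first base at position -125 from the start and TATAAA with its first base at -30. It also held the E-box CACGTG at -108 and 4 matches to the GC box GGGCGG, not capitalised, none of which shares a base with the capitals. Searched on both strands, TGACGTCA occurred in 1.85% and TATAAA in 11.5% of all 35116 RefSeq windows of the same length. CACGTG occurred in 7.26%, GGGCGG in 45.0% and the FOXO motif GTAAACA in 3.42% of them. The windows of the SPRY1 and SPRY2 starts printed here held neither TGACGTCA nor TATAAA, and neither held the ETS motif CCGGAAG (10.3% of all windows), the AP-1 motif TGACTCA or TGAGTCA (4.95%) or a CArG box (1.29%). Among the 12 windows of these genes, DUSP1 alone held TGACGTCA, another SPRY1 window alone held CCGGAAG, and no window held GTAAACA or a CArG box. A window of SPRED2, which was not called, also held TATAAA, with its first base at -31. The same SPRED2 window alone held an AP-1 motif, TGACTCA at -6. A match is a description of these letters, and no binding was measured.

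The other MAP kinase phosphatases gave a mixed picture. Of 9 listed, 8 were tested, of which 3 rose, 4 fell and 1 was not called, with a median log2 fold change of -0.023. The shares were 37.5% higher and 50% lower, against 34.8% and 36.3% of all tested genes. DUSP9 had no reads. DUSP2, another inducible nuclear phosphatase, averaged 1.41 CPM in quiescent and 5.22 CPM in young cells and fell with a log2 fold change of -1.88 ± 0.17 (adjusted p 2.14e-10). DUSP22, an atypical phosphatase of the JNK pathway, averaged 29.4 CPM in quiescent and 16.3 CPM in young cells and rose by 0.86 ± 0.06. DUSP14 fell slightly (log2 fold change -0.39 ± 0.12, adjusted p 0.00483). DUSP3, the most abundant of the list, averaged 174 CPM in quiescent and 146 CPM in young cells, a rise of 0.25 ± 0.04. Only 1 of the 4 falls was called when library size alone was used for scaling, and 3 genes of the list were called higher. Of all tested genes, 25.0% were called lower and 48.6% higher under that scaling.

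Among 20 other feedback inhibitors, 6 rose, 9 fell and 5 were not called, with a median log2 fold change of -0.028. The shares were 30% higher and 45% lower, against 34.8% and 36.3% of all tested genes. CBLB, a ubiquitin ligase that directs activated receptors to degradation, averaged 35.0 CPM in quiescent and 13.5 CPM in young cells and rose by 1.38 ± 0.06 on the log2 scale (adjusted p 8.00e-17). SPRED3, the third SPRED gene, averaged 12.6 CPM in quiescent and 23.7 CPM in young cells and fell with a log2 fold change of -0.92 ± 0.07. PHLDA2, a relative of PHLDA1, averaged 1.37 CPM in quiescent and 3.22 CPM in young cells and fell with a log2 fold change of -1.24 ± 0.18. DAB2, an endocytic adaptor and the most abundant of the list, averaged 594 CPM in quiescent and 592 CPM in young cells and was not called (adjusted p 0.914). DAB2 was called higher at 0.19 with library size alone and lower at -0.54 and -0.55 with the deposited RPKM, so no direction is given for it. Chosen after their values were seen, IL17RD, a membrane antagonist of FGF receptors also called SEF, rose by 0.89 ± 0.11, with 8.98 CPM in quiescent and 4.84 CPM in young cells, and NF1, the neurofibromin that SPRED proteins bind, fell with a log2 fold change of -0.23 ± 0.07 (adjusted p 0.0140). With library size alone, 10 of the 20 were called higher and 7 lower, against 48.6% and 25.0% of all tested genes.

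Genes that ERK is known to induce were mostly lower in quiescent cells. Of 25 listed, 24 were tested, of which 19 fell, 4 rose and 1 was not called, and 10 of the falls were at least 2-fold. Their median log2 fold change was -0.90, against 0.00 for all tested genes, of which 36.3% fell, 8.33% by at least 2-fold, and 34.8% rose. With library size alone 19 were again called lower and 5 higher, with a median of -0.72. That scaling called 25.0% of all tested genes lower and 48.6% higher, with a median of 0.18. IL11, a cytokine, averaged 7.49 CPM in quiescent and 32.4 CPM in young cells, a fall with a log2 fold change of -2.12 ± 0.07. HBEGF, an EGF receptor ligand, averaged 8.05 CPM in quiescent and 28.9 CPM in young cells. PLAUR, the urokinase receptor, averaged 23.3 CPM in quiescent and 83.0 CPM in young cells. HBEGF and PLAUR both fell, with log2 fold changes of -1.84 and -1.83. FOSL1, an AP-1 subunit stabilised by ERK, averaged 75.2 CPM in quiescent and 191 CPM in young cells and fell with a log2 fold change of -1.35 ± 0.04 (adjusted p 1.08e-19). MYC averaged 58.0 CPM in quiescent and 139 CPM in young cells, and CCND1, which encodes cyclin D1, averaged 885 CPM in quiescent and 1603 CPM in young cells. MYC and CCND1 both fell, with log2 fold changes of -1.26 and -0.86. EGR1 fell with a log2 fold change of -1.70 ± 0.12 (adjusted p 1.16e-04) and FOS with -0.94 ± 0.14 (adjusted p 0.00324).

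EGR2 was the only ERK-responsive gene that rose by at least 2-fold. EGR2, a transcription factor related to EGR1, averaged 14.1 ± 0.743 CPM in quiescent and 3.99 ± 0.154 CPM in young cells (SD, n = 3 each) and rose with a log2 fold change of 1.82 ± 0.09. This rise is close in size to that of SPRY1, and EGR1 and EGR2 thus moved in opposite directions as SPRY2 and SPRY1 did. ETV5 averaged 64.6 CPM in quiescent and 62.9 CPM in young cells and was not called (adjusted p 0.437), and it was called higher at 0.22 with library size alone and at 0.11 with upper-quartile factors. ETV4 fell with a log2 fold change of -0.42 ± 0.07, a call that was lost with the deposited RPKM (-0.29 and -0.34), and ETV1 rose by 0.14 ± 0.05. The receptor EPHA2 averaged 71.5 CPM in quiescent and 131 CPM in young cells and fell with a log2 fold change of -0.88, whereas EPHA4 averaged 32.9 CPM in quiescent and 28.0 CPM in young cells and rose by 0.23 ± 0.06.

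Genes of the ERK cascade, from adaptors and RAS to kinases and their nuclear targets, changed by less than 2-fold in every case. Of the 31 listed, 9 rose, 18 fell and 4 were not called, against 34.8% higher and 36.3% lower among all tested genes, and the list's median was -0.15 on the log2 scale. MAP2K1, which encodes MEK1, averaged 36.0 CPM in quiescent and 59.0 CPM in young cells and had the largest fall of the list, with a log2 fold change of -0.72 ± 0.05. MAPK3, which encodes ERK1, had a log2 fold change of -0.44. MAP2K2 had -0.26 and BRAF had 0.17, and all were called. MAP2K2 was not called with the deposited RPKM (-0.33 and -0.35) or with library size alone (adjusted p 0.0902). Under the scaling by library size, 13 genes of the list were called higher and 11 lower, and the median of the list was 0.028. Of all tested genes, 48.6% were called higher and 25.0% lower under that scaling, with a median of 0.18. Among the adaptors, GAB1 averaged 43.8 CPM in quiescent and 24.3 CPM in young cells and rose by 0.85 ± 0.06. SHC1, the most abundant, averaged 414 CPM in quiescent and 612 CPM in young cells and fell with a log2 fold change of -0.57. RPS6KA2, an ERK-activated kinase, averaged 333 CPM in quiescent and 207 CPM in young cells and rose by 0.69.

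The listed kinases of the p38, JNK and ERK5 branches hold MAP kinases and the kinases upstream of them. Of the 15, 6 were higher, 6 lower and 3 not called (median -0.055). The shares were 40% higher and 40% lower, against 34.8% and 36.3% of all tested genes. MAP2K3, a p38 activator, averaged 63.2 CPM in quiescent and 116 CPM in young cells, and MAPK7, which encodes ERK5, averaged 47.7 CPM in quiescent and 33.2 CPM in young cells. Their log2 fold changes were -0.88 and 0.52. MAP3K1 rose by 0.50, a call that was lost with the deposited RPKM (0.048 and 0.061), and MAP3K5, the most abundant, fell with a log2 fold change of -0.37. Of 15 growth factor receptors, 14 were tested, of which 5 rose, 8 fell and 1 was not called (median -0.15). The shares were 35.7% higher and 57.1% lower, against the same shares of all tested genes. FGFR4 averaged 2.79 CPM in quiescent and 20.9 CPM in young cells and fell with a log2 fold change of -2.90 ± 0.10. AXL averaged 215 CPM in quiescent and 733 CPM in young cells and fell with a log2 fold change of -1.77 ± 0.04. MET, the receptor of hepatocyte growth factor, averaged 20.1 CPM in quiescent and 46.4 CPM in young cells and fell with a log2 fold change of -1.20. INSR, the insulin receptor, averaged 31.2 CPM in quiescent and 18.7 CPM in young cells and had the largest rise of the list, 0.74.

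**Figure D5:**
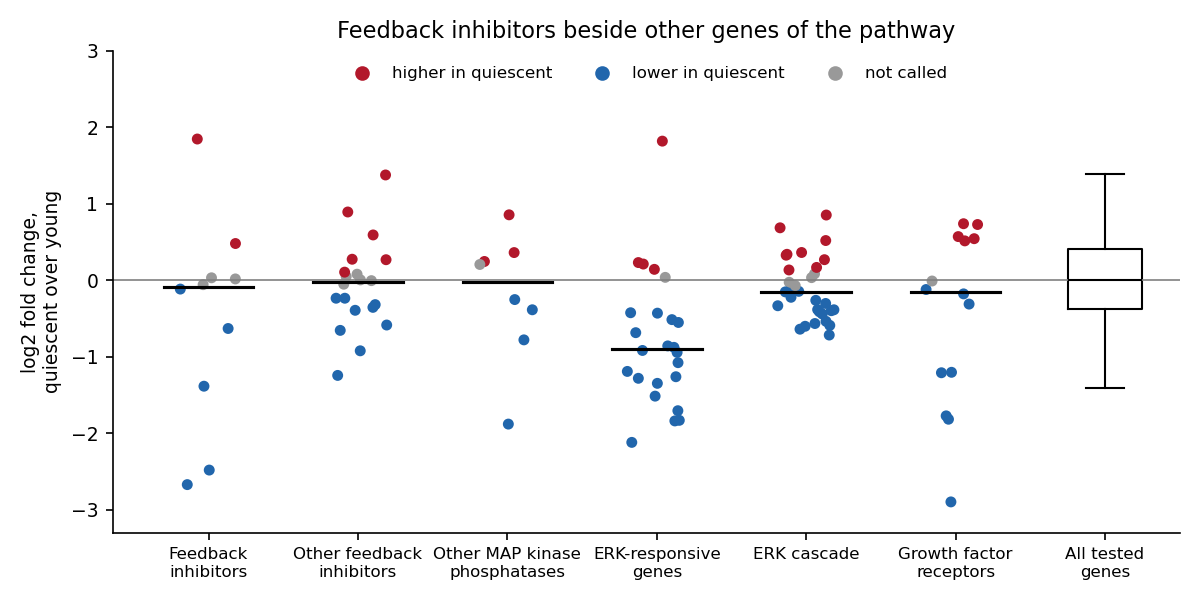
Log2 fold change, quiescent over young, of each tested gene among the feedback inhibitors and in 5 other lists of the pathway, coloured by call, with a line at each median, beside a box for all tested genes with quartiles and with whiskers from the 5th to the 95th percentile. The ERK-responsive genes have a median of -0.90, and the other lists, with medians of -0.15 to -0.023, are spread around 0.

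The genes whose profile over the 6 libraries was nearest to that of SPRY1, by the root mean square difference of centred log2 CPM, were LMCD1 (0.0579), KLHL24 (0.0656) and BMP4 (0.0666). LMCD1 averaged 38.1 CPM in quiescent and 10.5 CPM in young cells. Nearest to DUSP5 were GGH (0.0525), TNFRSF11B (0.0643) and CDCA5 (0.0678). GGH averaged 8.85 CPM in quiescent and 57.8 CPM in young cells. With 2 groups of 3, this measure mainly finds genes with a fold change of the same size and a like spread within each group.

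The 10 genes lie at separate places in the genome on GRCh38, and only DUSP6 and PHLDA1 on chromosome 12 and DUSP1 and SPRY4 on chromosome 5 share a chromosome. DUSP1 (ENSG00000120129) spans chr5:172768090-172771195 on the minus strand and SPRY4 spans chr5:142310427-142326455 on the minus strand; both fell, by 5.58-fold and 1.55-fold. DUSP6 spans chr12:89347232-89353271 and PHLDA1 spans chr12:76025447-76033932, both on the minus strand. SPRY1 spans chr4:123396795-123403760 on the plus strand, SPRY2 chr13:80335976-80340951 on the minus strand and DUSP5 chr10:110497838-110511544 on the plus strand. DUSP4 spans chr8:29333064-29350668 and SPRED2 chr2:65310851-65432637, both on the minus strand, and SPRED1 chr15:38252326-38357249 on the plus strand. Exons of PHLDA1 also share 553 bases with the antisense gene AC011611.3, which had at most 10 reads in any library. The same exon model shares 779 bases, or 9.65%, with the antisense gene AC011611.4, which had no reads. As for DUSP6, reads from the shared stretches cannot be assigned by strand.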

How the data were processed

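Total RNA of 3 quiescent and 3 young MRC-5 samples was made into libraries with TruSeq RNA v2, per the labels' protocols. The submitters' processing notes name featureCounts 1.4.6-p4, GRCh38, STAR 2.4.1d and bcl2fastq 1.8.4; the annotation, the strand setting and the handling of shared reads were not stated there or in the labels. The authors deposited raw read counts per gene, which were used for every test, and RPKM values for the same genes and libraries. The quiescent columns carry their samples' titles. The young columns could be assigned to the group only and are called young library 1.0, 1.1 and 1.2.

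The deposited RPKM did not follow from the counts. Among 10213 genes with at least 100 counts in every library, the read total implied by counts, RPKM and exon length repeated every 14 rows in quiescent and every 15 rows in young libraries, and spanned 1.81-fold in quiescent and 1.60-fold in young libraries. PHLDA1, for example, had 43.4, 75.5 and 54.8 RPKM in the authors' deposited table and 65.2, 66.2 and 67.2 RPKM computed from the counts in quiescent libraries. Levels were therefore computed as CPM per kilobase of exon, although the deposited RPKM had been planned for them; this was decided after seeing the data.

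The test was edgeR 4.0.16 under R 4.3.3 on these counts (filterByExpr, TMM, robust quasi-likelihood fit with group as the only term, Benjamini-Hochberg over 15568 genes). The biological coefficient of variation was 3.84%. The steps were also run on simulated counts with 200 changed genes and 1 fixed dispersion. In the data 71.1% of tested genes were called, so that run does not bear on the choice of scaling. Libraries of a group differed by more than sampling noise, with a chi-square per degree of freedom of 1.48 to 1.98 in quiescent and 3.43 to 8.83 in young pairs. Symbols, exon lengths and 1-based coordinates are from GENCODE 29, which held 57055 of the gene IDs.

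The 10 genes, the 6 lists and the tests were chosen with earlier results of these data known. Named genes are the 10, 17 genes set by name, and from each list the 3 largest called changes with a mean CPM of at least 1, the largest called change in the direction with fewer calls, and the most abundant gene; others are marked in the text, and some genes that the rule names are not reported here. Alternatives were library size, upper-quartile and DESeq2 size factors, DESeq2 1.42.0, limma-voom (limma 3.58.1), 2 filters on low counts, limma on log2(RPKM + 1) and log2(RPKM + 0.1), limma on log2 of RPKM from counts + 1, and each library left out.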

Additional observations from a re-analysis of the deposited data

How the results depend on the processing

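DUSP1, DUSP4, DUSP5, SPRY1, SPRY2 and SPRY4 kept their direction and call under all 16 alternatives, with log2 fold changes of -2.93 to -2.29, 0.25 to 0.66, -2.70 to -2.37, 1.80 to 2.09, -1.41 to -1.13 and -0.74 to -0.42. Scaling by library size alone moved all genes up by a median of 0.18, with 7568 called higher and 3889 lower. Under it, 5 of the 10 feedback inhibitors were called higher, DUSP6 (0.20), SPRED1 (0.12) and SPRED2 (0.21) being added, and PHLDA1 had 0.064. Limma on log2(RPKM from counts + 1), an alternative chosen after seeing the data that also scales by library size, likewise called 5 higher. Among all 15488 genes of that fit, 7356 were called higher and 3778 lower. Its log2 fold changes were 0.19, 0.11 and 0.20 for DUSP6, SPRED1 and SPRED2 and 0.064 for PHLDA1. PHLDA1 was not called with upper-quartile factors (-0.044), with the deposited RPKM (-0.12 with either pseudocount) or without quiescent replicate 1 (-0.099, adjusted p 0.0575), and without single libraries it ranged between -0.13 and -0.093. Leaving out each library in turn gave 2 members higher and 4 to 5 lower, and 5051 to 5491 of all genes higher and 5355 to 5543 lower.

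The deposited RPKM, whose read totals vary between rows, called 2783 genes higher and 4472 lower with a pseudocount of 1, and 2858 higher and 4496 lower with 0.1. They reversed DUSP3 (-0.31 and -0.32), BRAF (-0.039 and -0.057) and EPHA4 (-0.24 and -0.30), none of them called, and called DAB2 lower (-0.54 and -0.55), which was not called at 0.0051 in the edgeR test. Taken from deposited RPKM, the differences in log2 ratio were 3.32 for SPRY1 to SPRY2, 0.45 for SPRY4 to SPRY2, 0.60 for DUSP4 to DUSP6, -2.58 for DUSP5 to DUSP6 and -3.05 for DUSP1 to DUSP6. From counts with each library left out they were 3.20 to 3.26, 0.70 to 0.80, 0.42 to 0.53, -2.72 to -2.65 and -2.60 to -2.45 in the same order, and -0.12 to -0.05 for SPRED1 to SPRED2. The cause of the changed calls was not tested beyond the construction of these scalings. Depth limits DUSP4 most, with 89 to 129 reads per library. No paired analysis was possible because the young columns carry no replicate number of the labels.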
